A study of Drosophila melanogaster with 6 samples.

Results

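The genes described here build, trim and bind chitin in *Drosophila* larvae. They were taken by gene symbol alone: the chitin synthases and their helpers (kkv, Chs2, mmy, knk), the chitin deacetylases (serp, verm and the Cda genes), the chitinases (Cht), the imaginal disc growth factors (Idgf), the obstructor family with Gasp, the peritrophins and the mucins whose symbol is Muc followed by a number. This gave 50 genes among the 11982 genes that the array measures with a probe set carrying a single gene symbol, and where a gene had several probe sets the one with the highest mean intensity stood for it. One further gene of the rule, rtv, was not analysed here.

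The arrays compared 3 genotypes, and every larva carried the 337-GAL4 driver, which expresses GAL4 ubiquitously, together with its own endogenous Tip60. Control larvae came from w1118 and GAL4-337 parents and carried no Tip60 transgene. dTip60E431Q larvae (dTIP60E431Q in the sample labels) also carried a Tip60 transgene whose histone acetyltransferase domain has the substitution E431Q, and dTip60WT larvae carried an additional copy of wild-type Tip60. From each genotype, 2 pools of 35 entire larvae were collected after 3 days at 25°C, and every pool went on an Affymetrix Drosophila Genome 2.0 array of its own. A single insertion line, line B, stood for each transgene, and by the study's methods dTip60E431Q larvae with this driver die late in the second instar and were collected before that point.

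Chitin is a polymer of N-acetylglucosamine that stiffens the cuticle of the epidermis and the tracheae and the peritrophic matrix, the sheet that separates food from the midgut cells. The sugar is activated as UDP-N-acetylglucosamine, polymerised by chitin synthases at the cell surface, arranged into fibres and partly deacetylated, and at each moult chitinases and N-acetylglucosaminidases take the old matrix apart. Peritrophins, obstructor proteins and mucins are secreted proteins of these matrices, and many of them bind chitin directly.

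Values are the deposited linear intensities, and a difference is given on the log2 scale with its standard error (SE) from limma. A gene was called where the Benjamini-Hochberg adjusted p over all 18769 tested probe sets was below 0.05. Tip60 itself, the check of the labels, read 30.8 and 29.2 in the control pools, 5172 and 5464 in the dTip60E431Q pools and 3045 and 2755 in the dTip60WT pools. Both transgenic genotypes lay far above the control, and dTip60E431Q lay above dTip60WT by 0.88 on the log2 scale (adjusted p = 0.0142). Array medians were between 43.6 and 51.9, and the number of arrays, 2 per genotype, limits the precision of every value below. Each p-value sets a difference between genotypes against the spread between pools of the same genotype, estimated over all genotypes together. With a single insertion line for each transgene, variation between lines was not measured.

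With dTip60E431Q, 16 of the 50 genes (32%) were called higher than in the control and 1 (2%) was called lower. Over all 11982 genes 14.2% were called higher and 14.2% lower. The genes that rose were 5 chitinases, 6 mucins, 2 imaginal disc growth factors, the fibre organiser knk, the deacetylase Cda5 and obst-H, and the gene that fell was the mucin Muc68Ca. Rises ran from 0.63 for Idgf3 to 4.09 for Muc68E on the log2 scale (2.80 for Muc68E and 3.48 for Cht5 with a pseudocount of 16), and 13 of the 16 were at least 2-fold, as was the fall of Muc68Ca, where 9.93% of all genes were called with such a rise and 6.93% with such a fall. The methods' t-test was run here on linear intensities, allowing unequal variances and without the study's confidence bound on the fold. At p at most 0.05 and over 2-fold, it gave 9 genes higher and 1 lower, against 4.91% and 5.03% of all genes. Cht2, Cht7, Idgf1, Idgf3, knk, Muc26B and Muc68E, called higher by limma, did not pass it. The 2 dTip60E431Q pools lay above both control pools for 31 of the 50 genes and below both for 10, against 36.8% and 33.4% of all genes. The median difference was 0.39 over the 50 genes and 0.03 over all genes.

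The balance of higher and lower calls depended on how the arrays were scaled. When every array was set to the same median intensity, which moved dTip60E431Q down by 0.23 on the log2 scale relative to the control, 13 of the 50 genes were called higher and 4 lower, where 9.86% of all genes were called higher and 20.4% lower under the same scaling. Cht9, Idgf3 and Muc26B then lost their calls (adjusted p = 0.0526, 0.12 and 0.0567), and Idgf4, obst-E and Peritrophin-A were called lower. The median difference became 0.15 over the 50 genes and −0.20 over all genes. With quantile normalization it was 0.39 over the 50 genes and −0.08 over all genes.

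**Figure D1:**
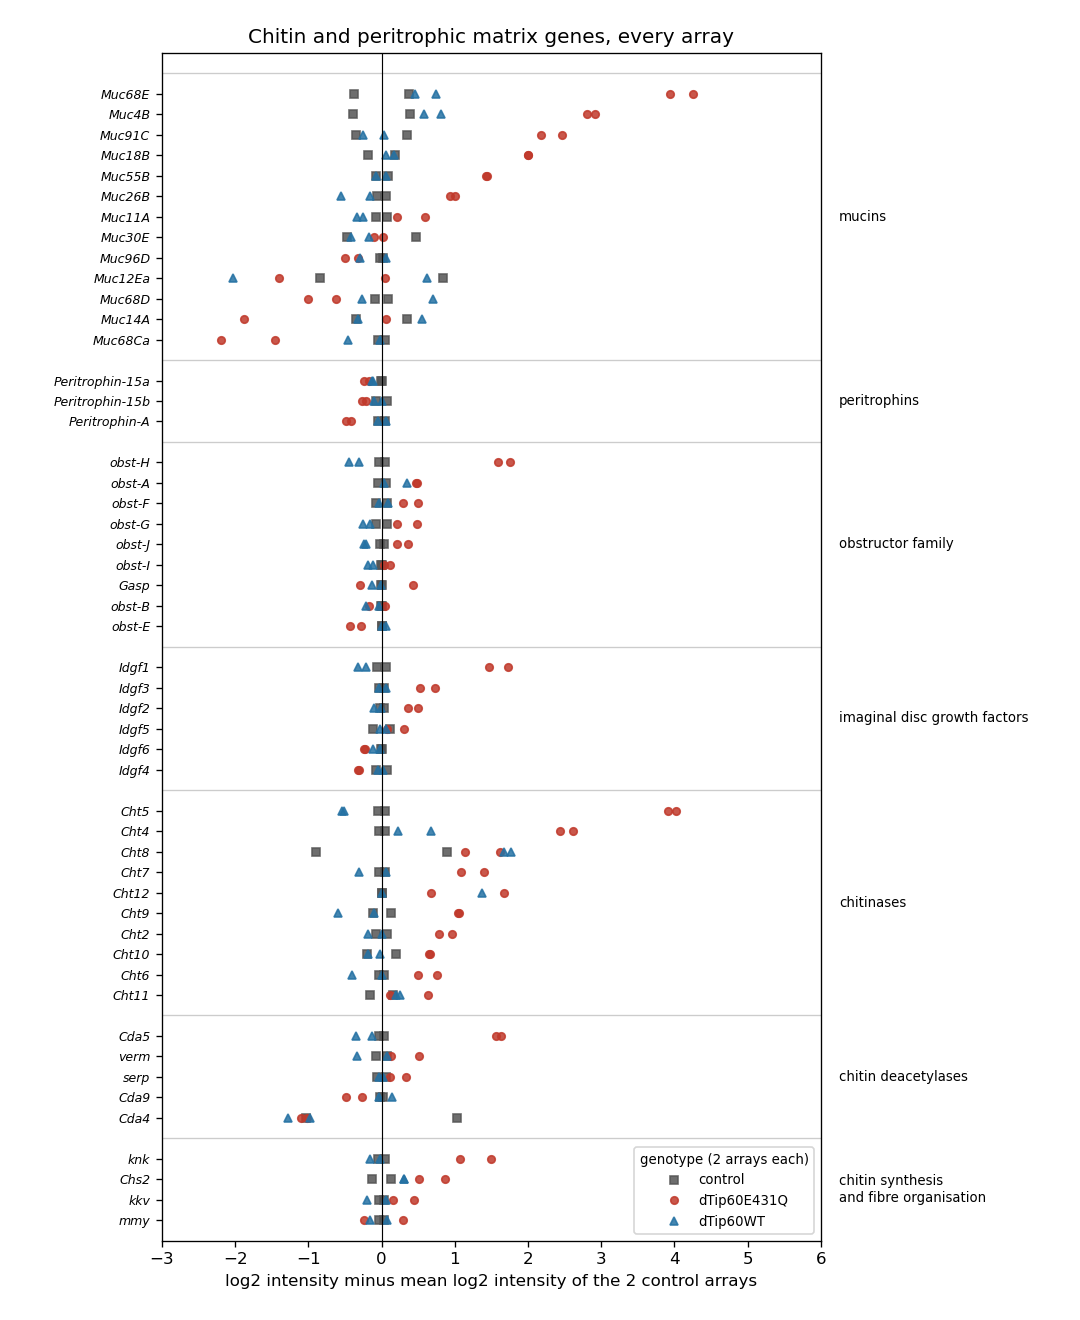
Log2 intensity of each of the 50 genes on each of the 6 arrays, after subtracting the mean log2 intensity of the 2 control arrays (x axis), with genes grouped by role and ordered within a role by the difference between dTip60E431Q and control. Squares are control, circles dTip60E431Q and triangles dTip60WT pools; the circles of Cht5 and Muc68E lie about 4 units to the right of the control, whereas those of the peritrophins lie left of it.

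Chitinases cut chitin chains, and the insect enzymes divide into large moulting enzymes of the cuticle and shorter enzymes of the gut. Of the 10 measured, 5 rose, none fell and the median difference was 1.12. Over all genes 14.2% were called higher and 14.2% lower. For 9 of the 10 both dTip60E431Q pools lay above both control pools, as they did for 36.8% of all genes. All 10 differences stayed above 0 under median scaling and under quantile normalization, as 4780 and 5482 of all 11982 genes were.

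Cht5, a moulting chitinase of the cuticle, read 35.5 and 37.8 in the control pools, 592 and 553 in the dTip60E431Q pools and 25.6 and 25.3 in the dTip60WT pools. It rose 15.6-fold with dTip60E431Q (log2 difference 3.97, SE 0.12, adjusted p = 0.00400). The pools of each genotype were close to each other and no 2 genotypes overlapped.

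Cht4, a gut-type chitinase, read 459 and 432 in the control pools, 2413 and 2720 in the dTip60E431Q pools and 520 and 708 in the dTip60WT pools. Its rise with dTip60E431Q was 5.75-fold (log2 difference 2.52, SE 0.20, adjusted p = 0.00645). Both dTip60E431Q pools stood well above the other 4.

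Cht7, a chitinase that is anchored in the membrane in other insects such as Tribolium, read 736 and 779 in the control pools, 1613 and 1992 in the dTip60E431Q pools and 789 and 613 in the dTip60WT pools. It rose by 1.24 (SE 0.20, adjusted p = 0.0184), and the control and dTip60WT pools overlapped.

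Cht9, which lies beside Cht4, read 2064 and 2446 in the control pools, 4697 and 4653 in the dTip60E431Q pools and 1480 and 2083 in the dTip60WT pools. It rose by 1.06 (SE 0.22, adjusted p = 0.0330), again with the dTip60E431Q pools apart from the rest.

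Cht2, a cuticle chitinase, read 368 and 334 in the control pools, 602 and 684 in the dTip60E431Q pools and 351 and 308 in the dTip60WT pools. It rose by 0.87 (SE 0.15, adjusted p = 0.0220), which is less than 2-fold, and the control and dTip60WT pools overlapped.

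The other 5 chitinases did not pass the test against the control. Cht10, a large enzyme with several catalytic domains, read 289 and 220 in the control pools, 395 and 399 in the dTip60E431Q pools and 248 and 221 in the dTip60WT pools. Its difference from the control was 0.66 (adjusted p = 0.0676), and both dTip60E431Q pools lay above the other 4. Cht6 read 715 and 745 in the control pools, 1034 and 1233 in the dTip60E431Q pools and 734 and 553 in the dTip60WT pools. Its difference was 0.63 (adjusted p = 0.0890), also without overlap between dTip60E431Q and the rest. Cht11 and Cht8 differed by 0.38 and 1.38 (adjusted p = 0.314 and 0.197). Cht12 was listed at 1.00 in both control pools, a value that 1.37% of all entries share, and reached only 3.20 and 1.60 with dTip60E431Q, so its difference of 1.18 (adjusted p = 0.224) rests on the lowest intensities of the array.

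Imaginal disc growth factors have the fold of chitinases but lack a catalytic residue, and act as secreted growth factors and cuticle organisers. Of the 6 measured, Idgf1 and Idgf3 rose and none fell, where 14.2% of all genes were called in each direction. The median difference was 0.31. Idgf1 read 339 and 370 in the control pools, 1176 and 981 in the dTip60E431Q pools and 307 and 284 in the dTip60WT pools, a rise of 3.03-fold with dTip60E431Q (log2 difference 1.60, SE 0.15, adjusted p = 0.00789). All 3 genotypes were separate, with dTip60WT lowest.

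Idgf3 read 1447 and 1372 in the control pools, 2025 and 2342 in the dTip60E431Q pools and 1474 and 1373 in the dTip60WT pools, a rise of 0.63 (SE 0.14, adjusted p = 0.0388). Its second probe set gave 0.81 (adjusted p = 0.0165). Idgf6 read 5477 and 5409 in the control pools, 4590 and 4665 in the dTip60E431Q pools and 5348 and 5018 in the dTip60WT pools, a difference from the control of −0.23 (adjusted p = 0.219). The members of the family thus lay on both sides of the control: both dTip60E431Q pools were above it for Idgf1, Idgf2 and Idgf3 and below it for Idgf4 and Idgf6. Both pools lay above the control for 36.8% of all genes and below it for 33.4%. Idgf6 changed sign under quantile normalization (0.12), and Idgf5 overlapped with the control.

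Among the genes of synthesis and fibre organisation, 1 of 4 was called higher, against 14.2% of all genes. That gene was knk (knickkopf), whose product arranges new chitin and shields it from chitinases. It read 204 and 220 in the control pools, 444 and 596 in the dTip60E431Q pools and 209 and 189 in the dTip60WT pools, a rise of 1.28 (SE 0.19, adjusted p = 0.0165). The dTip60E431Q pools differed from each other but stayed above the other 4.

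Neither chitin synthase passed the test. The epidermal and tracheal synthase kkv read 735 and 771 in the control pools against 836 and 1018 with dTip60E431Q, a difference of 0.29 (95% interval −0.16 to 0.75, adjusted p = 0.291). Chs2, the gut synthase, read 32.9 and 39.6 in the control pools against 51.6 and 65.8 with dTip60E431Q, a difference of 0.69 (95% interval 0.20 to 1.18, adjusted p = 0.0626). mmy (mummy), which makes UDP-N-acetylglucosamine, read 1994 and 2090 in the control pools, 1721 and 2497 in the dTip60E431Q pools and 2139 and 1824 in the dTip60WT pools. For mmy the 3 genotypes overlapped and the difference was 0.02 (adjusted p = 0.956), whereas for both synthases the dTip60E431Q pools lay above the control pools.

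Chitin deacetylases remove acetyl groups from the chains and change how proteins pack on them. Of the 5 measured, only Cda5 was called against the control, where 14.2% of all genes were called in each direction. Cda5 read 168 and 177 in the control pools, 510 and 536 in the dTip60E431Q pools and 157 and 135 in the dTip60WT pools. It rose 3.03-fold with dTip60E431Q (log2 difference 1.60, SE 0.14, adjusted p = 0.00696), and the 3 genotypes did not overlap.

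The tracheal deacetylases serp (serpentine) and verm (vermiform), which limit the length of tracheal tubes, did not pass the test. serp read 6582 and 7170 in the control pools, 7466 and 8632 in the dTip60E431Q pools and 6982 and 6707 in the dTip60WT pools, a difference of 0.22 (adjusted p = 0.313). Under median scaling that difference was −0.01, and under quantile normalization it was 0.49 with an adjusted p of 0.0474, so neither its sign nor its call was fixed. verm differed by 0.32 (adjusted p = 0.377) and Cda9, a gut deacetylase, by −0.38 (adjusted p = 0.141). Cda4 split the control pools, at 1497 and 6221, and all 4 transgenic pools lay between 1261 and 1551.

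The obstructor proteins are secreted chitin-binding proteins that scaffold the cuticle and the tracheal lining. Of the 9 measured, obst-H rose and none fell, where 14.2% of all genes were called in each direction. The median difference was 0.29. obst-H read 186 and 197 in the control pools, 647 and 579 in the dTip60E431Q pools and 154 and 141 in the dTip60WT pools, a rise of 3.19-fold with dTip60E431Q (log2 difference 1.68, SE 0.13, adjusted p = 0.00654). Its 3 genotypes were separate, with dTip60WT lowest.

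The remaining 8 obstructor genes differed from the control by between −0.36 and 0.47, none of them past the test. obst-E, a larval cuticle protein that shapes the pupal body, read 9242 and 9259 in the control pools, 6835 and 7644 in the dTip60E431Q pools and 9617 and 9250 in the dTip60WT pools (difference −0.36, adjusted p = 0.114). Its second probe set read 3255 and 3509 in the control pools and 3144 and 3977 with dTip60E431Q, a difference of 0.07 (adjusted p = 0.817). The probe sets of obst-E therefore did not give the same direction. obst-A, which is needed to keep the chitin of the larval cuticle intact, differed by 0.47 (adjusted p = 0.101), and Gasp, a protein of the tracheal lining, by 0.07 (adjusted p = 0.884).

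Peritrophins are named for the peritrophic matrix, in which such proteins cross-link chitin. None of the 3 measured was called. For all 3 both dTip60E431Q pools lay below both control pools, as they did for 33.4% of all genes. Peritrophin-15a read 8692 and 8630 in the control pools, 7703 and 7338 in the dTip60E431Q pools and 7970 and 7909 in the dTip60WT pools (difference −0.20, adjusted p = 0.266). The dTip60WT pools lay between the other genotypes. Peritrophin-15b and Peritrophin-A differed by −0.24 and −0.45 (adjusted p = 0.244 and 0.0636). Quantile normalization turned Peritrophin-15a to 0.05 (adjusted p = 0.801), and median scaling moved Peritrophin-A to −0.69 (adjusted p = 0.026).

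Mucins are secreted or membrane proteins with long repeats that carry sugar chains and form slippery gels. Of the 13 measured, 6 rose and 1 fell with dTip60E431Q, where 14.2% of all genes were called in each direction. The 13 differences ran from −1.83 to 4.09. Muc68E read 12.4 and 7.34 in the control pools, 146 and 181 in the dTip60E431Q pools and 15.9 and 13.1 in the dTip60WT pools, a rise of 17.1-fold with dTip60E431Q (log2 difference 4.09, SE 0.31, adjusted p = 0.00625). Both dTip60WT pools lay above both control pools, and the dTip60E431Q pools stood far above all 4. The control pools were close to 11.48, the intensity of the 20th percentile of the values, and with a pseudocount of 16 the difference was 2.80, still called, so the size of the fold depends on the lowest part of the scale.

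Muc18B read 1106 and 1424 in the control pools, 5037 and 5039 in the dTip60E431Q pools and 1412 and 1303 in the dTip60WT pools, a rise of 4.01-fold (log2 difference 2.01, SE 0.17, adjusted p = 0.00694). Muc55B read 2799 and 3132 in the control pools, 7991 and 8044 in the dTip60E431Q pools and 2803 and 3075 in the dTip60WT pools, a rise of 2.71-fold (log2 difference 1.44, SE 0.13, adjusted p = 0.00757). In both of these mucins the dTip60E431Q pools nearly coincided and the control and dTip60WT pools overlapped.

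Muc91C read 84.6 and 136 in the control pools, 484 and 595 in the dTip60E431Q pools and 89.9 and 110 in the dTip60WT pools (log2 difference 2.32, SE 0.29, adjusted p = 0.0117). Muc26B read 2194 and 2384 in the control pools, 4362 and 4586 in the dTip60E431Q pools and 2041 and 1554 in the dTip60WT pools (log2 difference 0.97, SE 0.18, adjusted p = 0.0259). For both, the dTip60E431Q pools stood clear of the rest, and for Muc26B the dTip60WT pools also lay below the control pools. Muc4B rose by 2.86 (SE 0.30, adjusted p = 0.00874) at very low intensity, from 1.93 and 3.33 in the control to 17.8 and 19.1, with dTip60WT at 3.79 and 4.43. Its difference was 0.89 with a pseudocount of 16, still called, so its size is set by values close to the bottom of the scale.

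Muc68Ca read 2640.1 and 2474 in the control pools, 556 and 935 in the dTip60E431Q pools and 2522 and 1859 in the dTip60WT pools. It was the only gene of the 50 to fall with dTip60E431Q (log2 difference −1.83, SE 0.31, adjusted p = 0.0223), a level 3.54-fold lower. The gene has 3 probe sets, and the others gave −1.92 and −1.79 (adjusted p = 0.0132 and 0.0236), so all 3 fell. Those others may also bind other transcripts. Muc68E and Muc68Ca thus stood at opposite ends of the list. The 6 mucins that were not called differed by between −0.91 and 0.41.

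**Figure D2:**
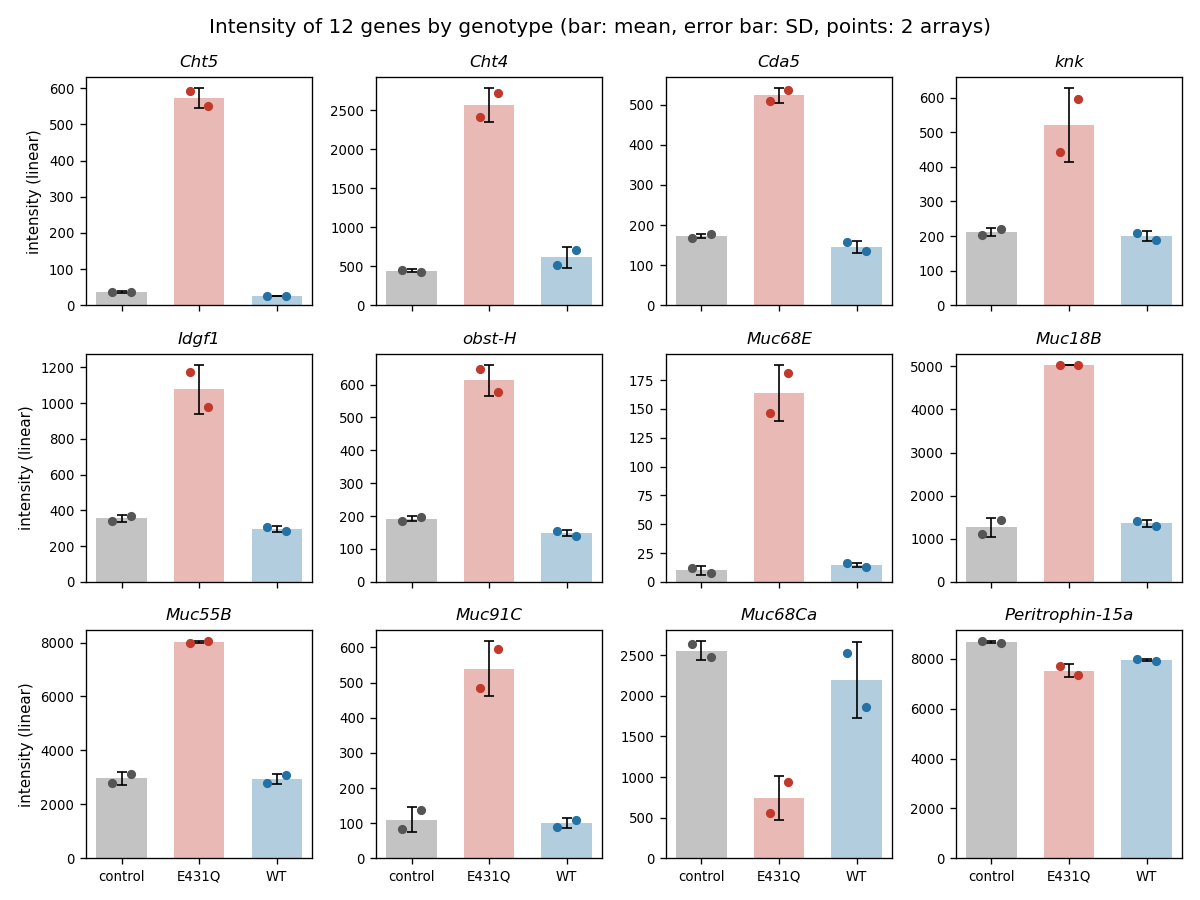
Linear intensity (y axis, from 0, one scale per gene) of 12 of the genes in the control, dTip60E431Q and dTip60WT larvae; bars are means, error bars are the SD of 2 arrays and points are the arrays. The dTip60E431Q bars exceed the other two for 10 genes, from Cht5 to Muc91C, and lie below them for Muc68Ca and Peritrophin-15a, the latter without a call.

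With 2 arrays per genotype, single arrays decided many of these calls against the control. When each array was left out in turn, the lone array of that genotype being taken to vary like the other genotypes, Cht5, Cht4, Cda5, obst-H, Muc18B and Muc68E kept their calls in all 6 fits. The number of genes called higher was 7 without control replicate 1, 10 without control replicate 2, 9 without dTip60E431Q replicate 1 and 8 without dTip60E431Q replicate 2, and it was 15 without either dTip60WT array. Without control replicate 1, Muc55B and Idgf1 just missed the threshold (adjusted p = 0.0501 and 0.0524). Muc4B missed it without dTip60E431Q replicate 1 or 2 (0.0506 and 0.0522), and Muc91C without control replicate 1 (0.0505) or either dTip60E431Q array (0.0546 and 0.0637). knk was not called without control replicate 1, control replicate 2 or dTip60E431Q replicate 2 (adjusted p = 0.0854, 0.071 and 0.0522).

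Cht2, Cht7, Cht9 and Muc26B lost their calls without any one of the control or dTip60E431Q arrays (highest adjusted p = 0.0993, 0.0916, 0.136 and 0.116), and Idgf3 did so without any of the 6 arrays (0.0725 to 0.147). Muc68Ca was not called without control replicate 1, control replicate 2 or dTip60E431Q replicate 1 (adjusted p = 0.102, 0.09 and 0.0622). Without control replicate 1 the single gene called lower was Cda4 instead (log2 difference −2.09, adjusted p = 0.048), since the control was then its high pool alone.

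The spread between the pools of a genotype was small for most genes. The median ratio of the higher to the lower pool was 1.09 in the control, 1.15 with dTip60E431Q and 1.12 with dTip60WT, and it passed 2 for 3, 2 and 2 of the 50 genes. In the control these were Cda4, Cht8 and Muc12Ea, the last at under 11 in both pools. Cht8 read 48.1 and 13.9 in the control, 79.3 and 56.9 with dTip60E431Q and 87.9 and 82.6 with dTip60WT. The dTip60E431Q pools of Gasp read 5403 and 3255, on both sides of control values of 3983 and 4018.

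Wild-type Tip60 left the chitin genes close to the control. None of the 50 was called in either direction, where over all genes 0.00835% were called higher, which is Tip60 alone, and 0% lower. At an unadjusted p below 0.05, limma passed 1 gene higher and 2 lower, against 2.25% and 2.09% of all genes, and the methods' t-test passed 0 in both directions, against 0.15% and 0.159%. These genes were Cht8 (1.72, adjusted p = 0.883), Cht5 (−0.53, adjusted p = 0.671) and obst-H (−0.38, adjusted p = 0.852). The difference of Cht8 rests on its split control pools. For Cht5 and obst-H both dTip60WT pools lay below both control pools, whereas both dTip60E431Q pools lay above them. The 50 differences had a median of −0.07, and 43 of them were within 0.5 of 0 on the log2 scale. Both dTip60WT pools were above the control pools for 6 genes and below them for 13, against 15.7% and 16.8% of all genes.

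Set directly against dTip60WT, dTip60E431Q had 19 of the 50 genes called higher and 1 lower, and over all genes 14.7% were called higher and 14.2% lower. Both dTip60E431Q pools were above both dTip60WT pools for 31 genes and below them for 11, against 35.7% and 33.6% of all genes, and the methods' t-test passed 8 higher and 0 lower, against 4.77% and 5.02%. Muc68E did not pass the t-test here either. This comparison and the one with the control share the dTip60E431Q arrays, so their calls are not independent. All 17 genes called against the control were also called against dTip60WT, in the same direction, and Cht10 (0.76, adjusted p = 0.0472), Cht6 (0.83, adjusted p = 0.0471) and obst-J (0.51, adjusted p = 0.0475) were called only here. Other probe sets of Cht6 gave 0.81 (adjusted p = 0.0250) and, at low intensity, 0.36 (adjusted p = 0.627). The call of Cht6 was lost when its probe sets were averaged. obst-J read 635 and 612 in the control pools, 724 and 804 in the dTip60E431Q pools and 529 and 539.9 in the dTip60WT pools, so no genotypes overlapped. Each of these 3 lost its call without any one of the 6 arrays, with an adjusted p of up to 0.174, 0.163 and 0.165. Differences from dTip60WT were 4.49 for Cht5, 3.50 for Muc68E, 2.08 for Cht4, 2.06 for obst-H, 1.86 for Idgf1 and −1.59 for Muc68Ca. Without a single array the number called higher was between 6 (dTip60WT replicate 1) and 15 (either control array), with 8 without dTip60WT replicate 2, 11 without dTip60E431Q replicate 1 and 9 without dTip60E431Q replicate 2. The gene called lower, Muc68Ca, was lost without any single array but dTip60E431Q replicate 2.

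The genes that feed chitin synthesis were called in both directions, as were all genes (14.2% higher and 14.2% lower). Of 7 measured genes between trehalose and the chitin precursor, 1 rose and 3 fell with dTip60E431Q. Treh, the trehalase that splits the blood sugar trehalose into glucose, read 471 and 555 in the control pools against 1252 and 1430 with dTip60E431Q, a rise of 1.39 (adjusted p = 0.0122). Pgi, which makes fructose-6-phosphate, read 5702 and 5827 in the control pools against 1842 and 1757 with dTip60E431Q and fell by 1.68 (adjusted p = 0.00566). Gnpnat, which adds the acetyl group to glucosamine-6-phosphate, read 1426 and 1401 in the control pools against 480 and 446 and fell by 1.61 (adjusted p = 0.00694). In all 3 genes the dTip60E431Q pools were apart from the control, and the dTip60WT pools were not.

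The hexokinase Hex-C fell by 0.88 (adjusted p = 0.0431), and against dTip60WT it was not called (−0.53, adjusted p = 0.136). For Hex-A, another hexokinase, both dTip60E431Q pools lay above the control pools without a call (0.56, adjusted p = 0.0876), and it was called higher against dTip60WT (0.73, adjusted p = 0.0470). The amidotransferases Gfat1 and Gfat2, which commit fructose-6-phosphate to amino sugars, differed by 0.14 and 0.30 (adjusted p = 0.502 and 0.284). Going from the supply of sugar to the polymer, then, Treh was higher than in the control, Hex-A was not called, and Hex-C and Pgi were lower. Further on, Gfat1 and Gfat2 were not called, Gnpnat was lower, and mmy, kkv and Chs2 were not called. Of the chitinases set beside them, Cht5 and Cht7 were higher and Cht10 was not called. The falls of Pgi and Gnpnat passed with any array left out (adjusted p at most 0.0476 and 0.0499), that of Hex-C missed without any of the 6 arrays (0.0639 to 0.16), and the rise of Treh missed without any one of those 4 arrays (0.0523 to 0.0672). None of the 7 was called with dTip60WT.

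At the other end, the N-acetylglucosaminidases Hexo2 and fdl went opposite ways. Hexo2, whose enzyme class cuts chitin oligomers to single sugars, read 275 and 255 in the control pools against 515 and 747 with dTip60E431Q, a rise of 1.23 (adjusted p = 0.0255). fdl, which trims glycan chains of glycoproteins, read 148 and 131 in the control pools against 78.9 and 89.1 and fell by 0.73 (adjusted p = 0.0476). Neither call was stable: Hexo2 passed without dTip60E431Q replicate 1 (0.0422) and missed without each other array (up to 0.109), and fdl missed without each of the 6 (up to 0.179).

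**Figure D3:**
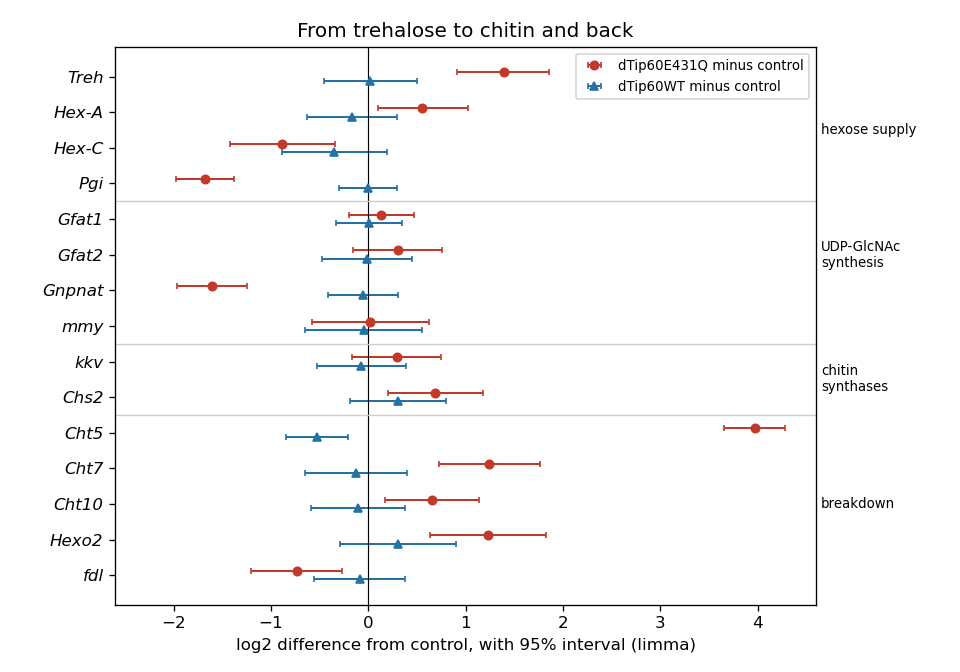
Log2 difference from the control (x axis) with its 95% interval from limma, not adjusted for the number of genes, for genes from trehalose through UDP-N-acetylglucosamine (UDP-GlcNAc) and chitin synthesis to chitin breakdown, with circles for dTip60E431Q and triangles for dTip60WT. The circles of Pgi and Gnpnat lie left of −1.5 and that of Cht5 close to 4, and the triangles of all 15 genes lie between −0.53 and 0.31.

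Among 6 further genes of chitin assembly and the peritrophic matrix, 2 rose and none fell with dTip60E431Q, where 14.2% of all genes were called in each direction. For all 6 both dTip60E431Q pools were above both control pools, as they were for 36.8% of all genes. Under median scaling exp and drd, which were not called, turned to −0.03 and −0.08. Alas, the first enzyme of heme synthesis, read 694 and 770.0 in the control pools against 1986 and 1891 and rose by 1.41 (adjusted p = 0.00853). ChLD3, a protein with a chitin-binding domain, read 21.3 and 38.5 in the control pools against 279 and 150 and rose by 2.83 (adjusted p = 0.0176). For both genes the dTip60WT pools overlapped with the control pools. dsx-c73A and reb, the latter needed for chitin deposition in tracheae, differed by 0.86 and 0.51 (adjusted p = 0.063 and 0.152). Without control replicate 1 neither Alas nor ChLD3 passed (0.0541 and 0.0744), and ChLD3 also missed without dTip60E431Q replicate 1 (0.066).

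None of 6 mucin-related Mur genes was called against the control, where 14.2% of all genes were called in each direction. Of 5 zona pellucida proteins of the apical matrix, which tie the cuticle to the cell, dyl (dusky-like) rose by 3.79 (adjusted p = 0.024), from 12.2 and 25.9 to 434 and 139. The 2 dTip60E431Q pools of dyl differed widely from each other, and its call held only without dTip60E431Q replicate 2 (0.0435) among the fits with an array left out (up to 0.101 in the others).

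Moulting and its chitin genes are timed by the steroid ecdysone. Of 11 measured genes of the ecdysone cascade and of cuticle regulation, 3 fell and 1 rose with dTip60E431Q. For comparison, 14.2% of all genes were called lower and 14.2% higher. br (broad), a regulator of metamorphosis that is switched on in the last larval instar, read 505 and 343 in the control pools against 125 and 117 and fell by 1.78 (adjusted p = 0.0114). usp, the partner of the ecdysone receptor, fell by 0.89 (adjusted p = 0.0253) and the nuclear receptor Hr38 by 0.91 (adjusted p = 0.0489), while Eip78C rose by 0.74 (adjusted p = 0.0489), a call that ended under median scaling (adjusted p = 0.112). EcR, the receptor itself, differed by −0.17 (adjusted p = 0.701). The call of br was lost without dTip60E431Q replicate 1 or 2 (0.0579 and 0.0623), usp passed only without dTip60E431Q replicate 2 (0.0458), Hr38 missed without any one control or dTip60E431Q array (0.133 to 0.175), and Eip78C missed without each of the 6 arrays (up to 0.182).

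Several of the genes lie next to each other, with no protein-coding gene between them in the RefSeq gene table, and neighbours did not always share a response. Idgf1, Idgf2 and Idgf3 are adjacent and differed from the control by 1.60, 0.43 (adjusted p = 0.0741) and 0.63, all with dTip60E431Q pools above the control. In the run Cht8, Cht12, Cht4 and Cht9 the last 2 rose, by 2.52 and 1.06, and Cht8 and Cht12 were not called. verm and serp, a pair, differed by 0.32 and 0.22. obst-A and Peritrophin-A lie side by side and went apart: both dTip60E431Q pools were above the control for obst-A (0.47, adjusted p = 0.101) and below it for Peritrophin-A (−0.45, adjusted p = 0.0636), though neither was called. Peritrophin-15b and Peritrophin-15a, also side by side, differed by −0.24 and −0.20.

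**Figure D4:**
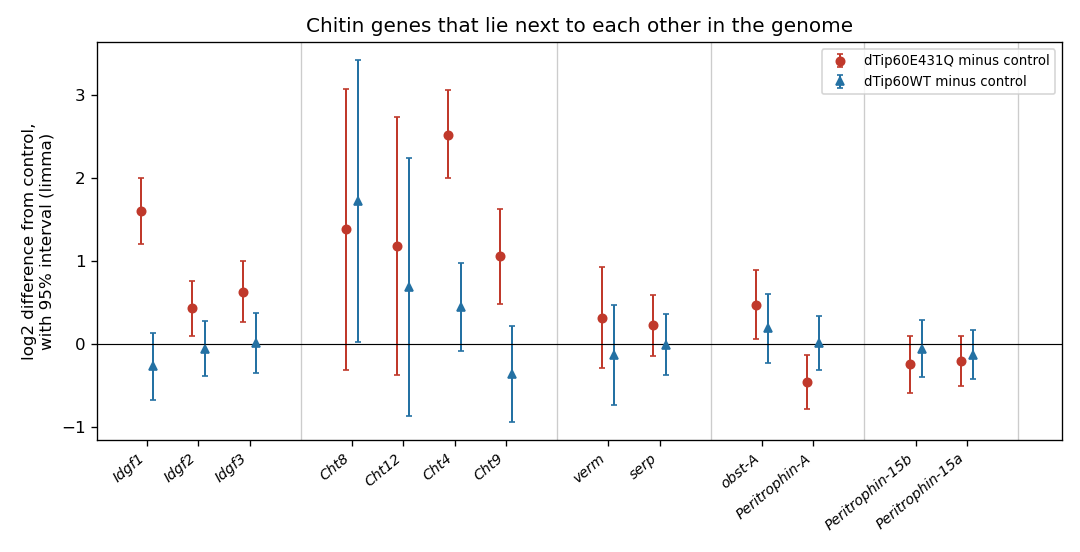
Log2 difference from the control (y axis) with its 95% interval from limma, not adjusted for the number of genes, for the 5 runs of neighbouring genes, in order along each run and separated by vertical lines, with circles for dTip60E431Q and triangles for dTip60WT. Idgf1 and Cht4 stand above their neighbours' circles, and the interval of Peritrophin-A lies below 0 whereas that of obst-A lies above it.

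Whole larvae hold every tissue, and in such samples fewer cells of a type and less RNA per cell cannot be told apart. Genes of several marker lists were called with dTip60E431Q, where 14.2% of all genes were called higher and 14.2% lower. Of 6 measured epidermis and cuticle markers ect was called higher (3.39, adjusted p = 0.00900) and the cuticle protein genes Lcp9 and Cpr78E lower (−3.0 and −2.86, adjusted p = 0.00422 and 0.00550), and their summed intensity was 11747 to 14936 in the control, 22129 to 26841 with dTip60E431Q and 11039.5 to 12560.5 with dTip60WT. The higher sum came mainly from TwdlB and TwdlM, cuticle protein genes that did not pass the test (adjusted p = 0.141 for each). TwdlB read 63.7 and 1357 in the control pools, 9028 and 10480 in the dTip60E431Q pools and 53.2 and 696 in the dTip60WT pools, so the pools of the control and of dTip60WT stood far apart.

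Of the fat body and storage markers, 2 of 3 measured fell, with sums of 18982 to 26054 in the control, 161 to 169 with dTip60E431Q and 20166 to 20209 with dTip60WT. Among them Lsp2, a storage protein gene that turns on in the third instar, read 15146 and 13517 in the control pools and 140 and 130.0 with dTip60E431Q. The third, Fbp1, another fat body gene of the late larva, read 1329 and 7.09 in the control pools, 3.32 and 6.42 in the dTip60E431Q pools and 5.01 and 1015 in the dTip60WT pools, so pools of the same genotype stood far apart. The paper describes the larvae used for the arrays as second instar. The instar of each pool is not in the labels, and its part in the differences of the chitin genes was not tested.

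The 7 measured midgut enzymes had 2 called higher and 1 lower, with sums of 33042 to 37528 in the control, 37495 to 38054 with dTip60E431Q and 34018 to 37586 with dTip60WT. No tracheal marker of 6 was called (sums 13983 to 14827, 16752 to 16970.1 and 13196 to 14612 in the same order), and 3 of these 6 are serp, verm and Gasp themselves. Of the 8 hemocyte markers 1 was lower (14263 to 14668, 12839 to 13272 and 12601 to 14591), of 2 muscle markers 1 was lower (18838 to 19537, 14177 to 14512 and 18474 to 19414), and of 3 neuronal markers none was called (353 to 370, 352 to 355 and 313 to 379). In a limma fit of only the control and dTip60E431Q arrays, the hemocyte call (PPO1) and the muscle call (Tm2) were lost (adjusted p = 0.0636 and 0.0905). The called markers of the other lists kept their calls in that fit. The neuronal marker nSyb was near the bottom of the scale, at 8.82 and 3.59 in the control and 1.0 and 3.77 with dTip60E431Q. The part of tissue make-up in the differences of the chitin genes was not tested.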

How the data were processed

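Total RNA of 2 pools of 35 whole larvae for each of 3 genotypes was hybridised to Affymetrix Drosophila Genome 2.0 arrays. Scanned arrays were processed by the authors with GCOS and then dChip, and the deposited intensities, linear and from 0.69 to 18115, were taken to be the resulting model-based expression indexes. Software versions, the baseline array and the probe model are not given in the sources used here. Of 18952 probe sets, 183 Affymetrix controls were left out and 18769 tested. The platform annotation gives 13647 probe sets a single symbol, 402 several and 4720 none. Only single-symbol probe sets were named, and the one with the highest mean stood for a gene (57 probe sets for the 50 genes, of which 5 had several). One probe set shared by Idgf4 and another gene was left out. The chosen probe sets of Idgf3, Idgf4, Peritrophin-A and Muc96D, and the further probe sets of Muc68Ca, may also bind other transcripts.

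Log2 intensities, with no pseudocount and no filter, were fitted in limma 3.58.1 (R 4.3.3) with a mean per genotype over all 6 arrays (3 residual degrees of freedom, prior 1.43). The procedure was tested on simulated data. Values per array are given for genes called in any comparison and for the member of each role with the highest mean, other genes by count, range or difference, and of the other lists up to 4 genes with the smallest p; further genes, among them other chitin genes, EcR, Gfat1, Gfat2 and TwdlB, were named after their values were seen. The members, the lists and the tests were chosen with earlier results of these data known. Alternatives were a fit of only 2 groups, the replicate number as a block, limma's trend and robust options, scaling to a common median, quantile normalization, a floor at the 20th percentile, a pseudocount of 16, a filter at the 40th percentile, averaged probe sets, each array left out, a 2-fold threshold, and the methods' t-test with and without Benjamini-Hochberg adjustment. Plots were made with matplotlib 3.10.9.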

Additional observations from a re-analysis of the deposited data

How the results depend on the processing

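For dTip60E431Q against the control, the count of chitin genes called higher (16) was 9 with the methods' t-test, 0 after its Benjamini-Hochberg adjustment and 7 to 15 with an array left out. It stayed between 11 and 23 under the other alternatives: 15 in the 2-group fit, 23 with trend and robust options, 13 with median scaling, 17 with quantile normalization, 18 with the floor, 20 with the pseudocount, 21 with the filter (44 genes left) and 13 with a 2-fold threshold. The count called lower (1) was 9 with trend and robust options, 4 with median scaling, 6 with the floor, 2 with the pseudocount, 3 with the filter, 0 with the adjusted t-test and 0 to 1 with an array left out. With trend and robust options the 3 peritrophins were among those called lower. The median difference (0.39) was 0.15 with median scaling.

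For dTip60E431Q against dTip60WT, the count called higher (19) was 8 with the methods' t-test, 0 after adjustment and 6 to 15 with an array left out. The count called lower (1) was 0 in the 2-group fit, 5 with trend and robust options, 4 with median scaling, 4 with the floor, 2 with the pseudocount, 4 with the filter, 0 with the t-test before and after adjustment, and 0 to 1 with an array left out. The median difference (0.38) was 0.16 with median scaling and 0.37 to 0.53 with an array left out. For dTip60WT against the control no alternative gave a call of any chitin gene.

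With the replicate number as a block, 11 genes were called higher and 0 lower against the control, losing Cht2, Cht7, Cht9, Idgf3, Muc26B and Muc68Ca, and 0 were called lower against dTip60WT. Over all tested probe sets together, the deviations of same-numbered arrays correlated at −0.0125, −0.0116 and −0.00735 between the genotypes. These values show no pairing by replicate number across the array as a whole, and pairing in a smaller set of genes was not tested.

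The number of arrays limits the tests: 4 or 6 arrays leave 2 or 3 residual degrees of freedom, and the adjusted p of the firmest calls reached 0.0473 to 0.0499 when control replicate 1 was left out. Dim probe sets, such as those of Muc68E, Muc4B and Cht12, depend on the lowest part of the scale.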
